A study of Arabidopsis thaliana with 9 samples.

Results

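Gene expression was compared between 2 transgenic Arabidopsis thaliana lines taken as one group and wild type, to show what both lines share. The members are the 3 libraries labelled OXmiR400 (line YK2) and the 3 labelled OXrPPR1 (line 1C9), 6 in all, set against the 3 wild type libraries. Together they are all 9 libraries of the series, and every gene of the deposited table was used. All libraries were made from RNA of seedlings that had received 100 µM cadmium for 6 h, wild type included, so the comparison is between genotypes under cadmium and holds no unexposed plant. The titles of all 9 samples begin with "Colombia". Seedling age, the promoter of each transgene and how many independent transformants were grown are not given in the labels, and each transgenic genotype carries 1 line name. Whether the 3 libraries of a genotype derive from different cultures is not in the labels either. The p-values therefore rest on the spread among these samples, some or all of which may be technical.

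The microRNA miR400 is encoded in an intron and is known to guide cleavage of transcripts for pentatricopeptide repeat (PPR) proteins. PPR proteins bind RNA in mitochondria and plastids and act in its editing, splicing and stability. Cadmium enters plant roots partly through iron transporters, and iron supply is sensed by a network in which IRON MAN (IMA) peptides, clade Ib bHLH transcription factors and the ubiquitin ligase BRUTUS take part. Iron that enters the cell is used for haem and iron-sulfur clusters or stored in ferritin, both largely in plastids and mitochondria.

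On the log2(FPKM + 1) scale used for the test, IMA genes held the 2 highest fold changes among the genes that passed, so their coding sequences are shown first. The deposited table lists these loci only as hypothetical proteins, and the names IMA1 (AT1G47400), IMA2 (AT1G47395) and IMA3 (AT2G30766) come from the gene list used here. The sequences are those of RefSeq on the plus strand of TAIR10.1, at chr1:17383117-17383269 for IMA2, chr1:17385818-17385970 for IMA1 and chr2:13108068-13108211 for IMA3. Capitals mark the bases at which IMA1 and IMA2 differ, and IMA3 is in lower case throughout.
IMA2: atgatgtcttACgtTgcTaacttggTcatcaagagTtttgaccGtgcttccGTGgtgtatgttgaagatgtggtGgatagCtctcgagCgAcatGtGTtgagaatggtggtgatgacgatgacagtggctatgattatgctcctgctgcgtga
IMA1: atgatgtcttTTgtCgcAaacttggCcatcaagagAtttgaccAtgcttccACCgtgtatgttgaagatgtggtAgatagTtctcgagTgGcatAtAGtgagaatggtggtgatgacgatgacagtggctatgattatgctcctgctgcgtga
IMA3: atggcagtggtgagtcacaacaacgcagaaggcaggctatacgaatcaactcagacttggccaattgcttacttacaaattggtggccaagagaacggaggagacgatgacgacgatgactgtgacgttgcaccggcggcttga
The coding sequences of IMA1 and IMA2 have 153 bases each, of which 136 (88.9%) are identical and 17 differ. Their last 55 bases are the same, so a read wholly within that stretch could not be told apart. The levels of the pair may share reads, which was not tested. IMA3, on chromosome 2, has 144 coding bases.

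Levels are in FPKM, which counts sequenced fragments (or reads) by exon length and library size. The sequencing depth that the spacing of low values implies was 15.5 to 17.0 M units in OXmiR400, 19.2 to 21.1 M in OXrPPR1 and 12.7 to 17.1 M in wild type, a unit being 1 read or fragment. Across genes on the log2 scale, libraries of the same genotype correlated at r = 0.9621 to 0.9805 and libraries of different genotypes at 0.9497 to 0.9745, and genes are not independent replicates. OXrPPR1 replicate 1 and wild type replicate 2 correlated most with each other (0.9745), and OXrPPR1 replicate 3 most with wild type replicate 3 (0.9705). The transgenes set the lines apart from each other. The miR400 precursor MIR400 was at 953, 684 and 629 FPKM in OXmiR400 and 0.348, 0.241 and 0 FPKM in OXrPPR1, against 0.194, 0.572 and 0 FPKM in wild type. PPR1 was at 2.56, 2.102 and 1.34 FPKM in OXmiR400 and 25.5, 24.7 and 21.9 FPKM in OXrPPR1, against 2.40, 2.17 and 2.54 FPKM in wild type. Each was high in 1 line alone and neither passed the pooled test (adjusted p = 0.498 and 0.534 in limma), which counts a difference between the lines as spread. The gene that hosts MIR400, AT1G32583, had a log2 difference of 0.16 ± 0.14 (SE; adjusted p = 0.626 in limma). Genes of green tissue and of roots were detected in every library, as whole seedlings would give. The 38 nuclear photosystem genes summed to 61771 to 84438 FPKM in the 2 lines and 58126 to 70402 FPKM in wild type, and each of the 19 root markers was above 0 FPKM in all 9 libraries.

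Of 19955 genes tested, 41 differed between the pooled lines and wild type at adjusted p under 0.05 in limma, with 23 higher and 18 lower in the lines. These are 0.205%, 0.115% and 0.0902% of the genes tested, and such genes are called here. The median log2 fold change of all tested genes was -0.02. Fold changes are differences of log2(FPKM + 1), lines minus wild type, and understate the change of low genes. Of the 41, 25 changed by at least 1 on this scale, 14 upward and 11 downward. In all 41 the 6 transgenic libraries lay on one side of the 3 wild type libraries, which held for 7.64% of all tested genes. At unadjusted p under 0.05 there were 1295 genes higher (6.49%) and 1691 lower (8.47%) in limma.

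Because the pooled fit counts a difference between the lines as spread, a gene whose lines lay far apart was unlikely to be called, so the closeness of the lines in the 41 follows partly from how they were chosen and is given as a description. None of the 41 was called between OXmiR400 and OXrPPR1 in limma (adjusted p = 0.556 to 0.999), where 13 of the 19955 genes (0.0651%) were. At unadjusted p under 0.05, 4 of the 41 differed between the lines, with 95% intervals that left out 0. They were AT5G37490, an ARM repeat protein gene, at 0.80 (OXmiR400 minus OXrPPR1, log2), IMA3 at 0.71, AT1G52315 at 0.43 (0.06 to 0.81) and OCT1 at -0.50 (-0.92 to -0.09). Set against wild type on its own, OXmiR400 had 114 called genes (0.571%) and OXrPPR1 13 (0.0651%) in limma, and both comparisons use the same wild type libraries. Of the 41, 34 passed in OXmiR400 on its own and 7 in OXrPPR1 (limma), counts given as a description. For IMA2 the adjusted p was 0.0222 in OXmiR400 and 0.0849 in OXrPPR1, for IMA3 0.0116 and 0.0655, for NEET 0.0332 and 0.112, and for FRO5 0.0274 and 0.1003 (limma). GASA1 (0.0209 and 0.0300), AT1G75945 (0.0145 and 0.0187), UBC12 (0.0134 and 0.0330) and petA (0.0409 and 0.0382) passed in each line on its own in limma. So did AT1G07373 (0.0209 and 0.0187) and AT1G78995 (0.0402 and 0.0386). AT1G78995, an uncharacterized gene, fell by 0.73 in the pooled fit (log2, SE 0.10; adjusted p = 0.0294 in limma).

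**Figure D1:**
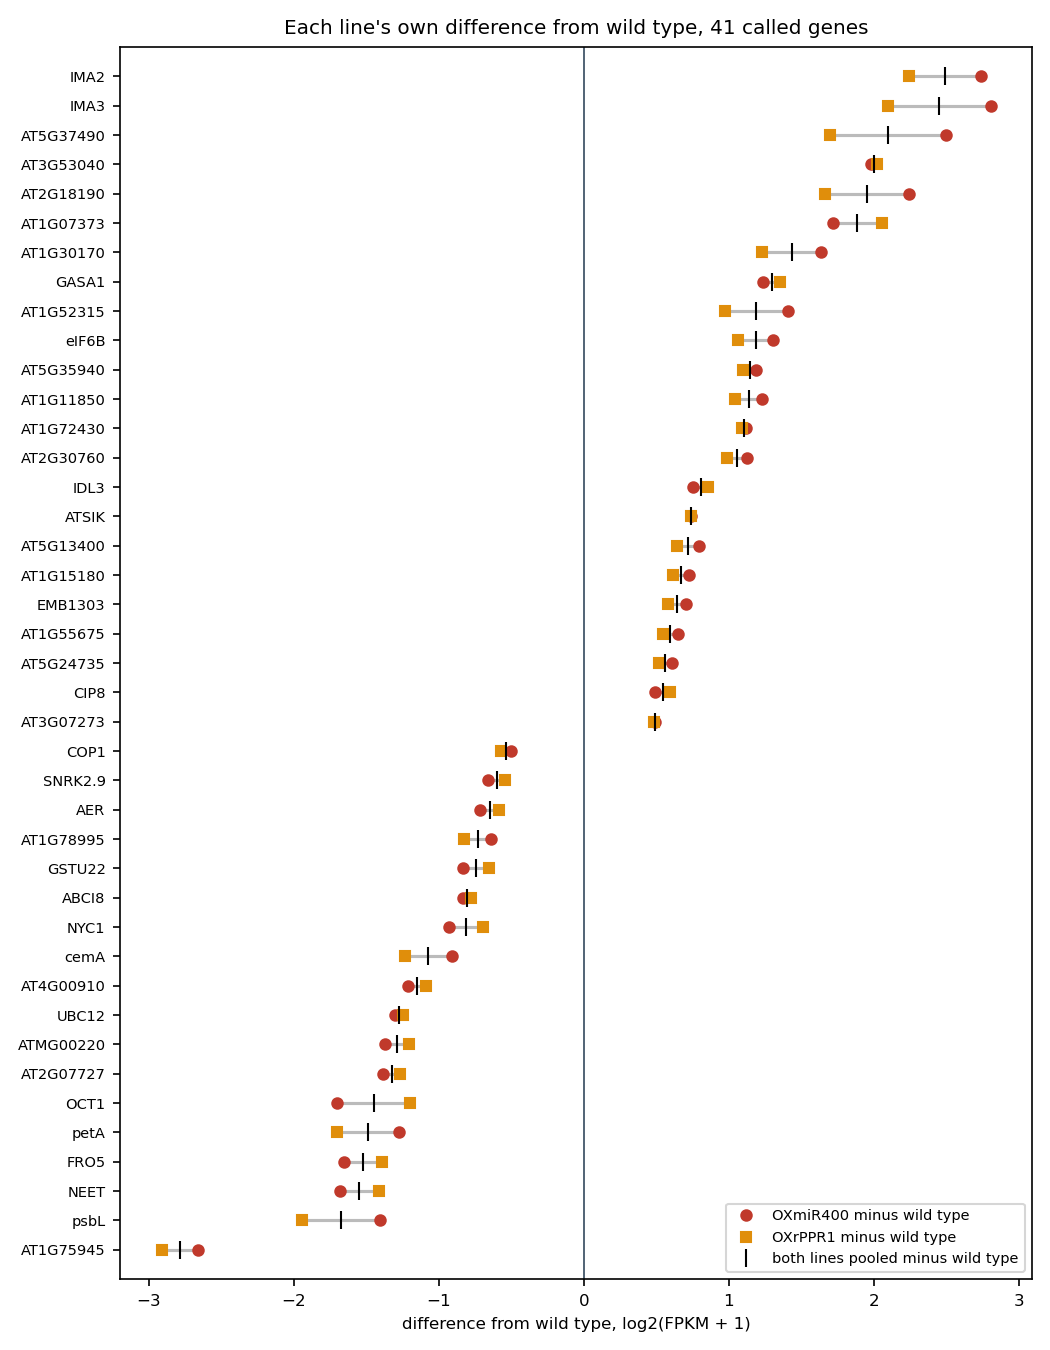
Difference of each line from wild type for the 41 called genes, on the log2(FPKM + 1) scale (x axis), with OXmiR400 as circles, OXrPPR1 as squares and the pooled value as a black tick, from the highest (IMA2, 2.49) to the lowest (AT1G75945, -2.79). The widest gap between the lines is 0.80, in AT5G37490, and the pooled test that chose these genes favours those whose lines lie close together.

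The calls depended on single libraries. Without OXmiR400 replicate 2 no gene was called in limma, with a smallest adjusted p of 0.0505 and 2416 genes at unadjusted p under 0.05. Without OXmiR400 replicates 1 and 3 the counts were 99 and 8, and without wild type replicates 1, 2 and 3 they were 5 in each case. Without OXrPPR1 replicates 1, 2 and 3 they were 61, 31 and 54. Without both OXrPPR1 replicate 3 and wild type replicate 2, a choice made after seeing the data, 76 genes were called, and 19 of them were among the 41. Every one of the 41 kept its sign in the 9 fits with 1 library left out. GASA1 and AT1G75945 were called in 8 of the 9, and the other 39 in 1 to 6 of them. Each of those 39 lost its call without OXmiR400 replicate 2 and without wild type replicate 3, and those called in 4 of the 9 fits also lost it when OXmiR400 replicate 3, wild type replicate 1 or wild type replicate 2 was left out. Across the 9 fits the largest adjusted p of any of the 41 was 0.174, for GSTU22 without wild type replicate 1.

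**Figure D2:**
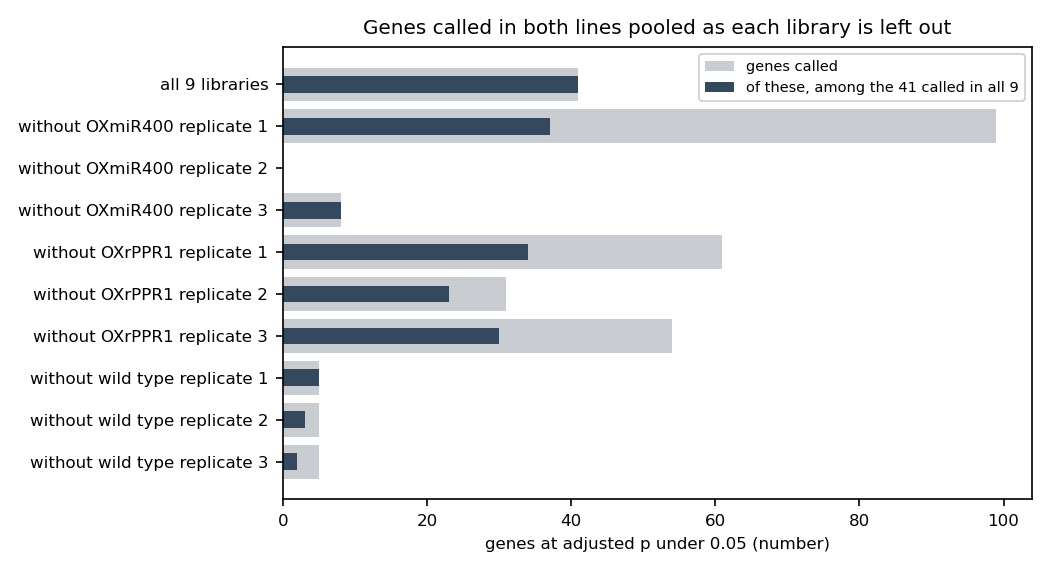
Number of genes called in the pooled comparison (x axis) with all 9 libraries and with each library left out (rows), in grey, with the number that are among the original 41 in dark blue. The count is 41 with all libraries, 0 without OXmiR400 replicate 2 and 5 without any 1 wild type library.

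Among the called genes, IMA2 and IMA3 had the largest rises on the log2(FPKM + 1) scale. By the ratio of mean FPKM, at 7.21 and 7.66, they lay below 4 called genes with under 0.5 FPKM in wild type, AT1G30170 (32.3), AT1G07373 (19.2), AT3G53040 (17.7) and AT2G18190 (10.5). IMA2 and IMA3 are genes of small peptides that promote iron uptake. IMA2 was at 21.6, 31.4 and 30.6 FPKM in OXmiR400 and 13.7, 36.7 and 14.0 FPKM in OXrPPR1, against 2.63, 5.09 and 2.54 FPKM in wild type. IMA3 was at 19.0, 26.8 and 18.6 FPKM in OXmiR400 and 11.03, 19.99 and 8.92 FPKM in OXrPPR1, against 1.44, 3.39 and 1.97 FPKM in wild type. The lowest transgenic library exceeded the highest wild type library for both genes. In both, replicate 2 was the highest library of every genotype, wild type included. IMA2 rose by 2.49 ± 0.34 (log2, SE; adjusted p = 0.0306 in limma), with 2.74 in OXmiR400 and 2.24 in OXrPPR1. IMA3 rose by 2.45 ± 0.32 (SE; adjusted p = 0.0294 in limma), with 2.81 in OXmiR400 and 2.099 in OXrPPR1. The line difference was 0.49 for IMA2 (95% interval -0.35 to 1.33) and 0.71 for IMA3 (0.03 to 1.39), and neither passed (adjusted p = 0.848 and 0.660 in limma). Each of these genes was called in 4 of the 9 fits with a library left out, and without OXmiR400 replicate 2 their adjusted p was 0.0870 and 0.0659 in limma. IMA1, the near copy beside IMA2, was at 9.46, 13.5 and 14.1 FPKM in OXmiR400 and 5.54, 20.7 and 9.06 FPKM in OXrPPR1, against 2.05, 3.22 and 2.37 FPKM in wild type. Its libraries did not overlap either, at a log2 difference of 1.79 ± 0.32 (SE), but it did not pass (adjusted p = 0.0580 in limma).

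Another called gene lay near IMA2, and another overlapped IMA3. Whether called genes lie close together more often than other genes was not tested. AT1G07373, a long non-coding RNA on the minus strand of chromosome 1, lies 8543 bases from IMA2, with IMA1 and 2 other genes between them. It was at 2.89, 2.63 and 3.04 FPKM in OXmiR400 and 3.16, 6.16 and 2.90 FPKM in OXrPPR1, against 0.0605, 0.380 and 0.101 FPKM in wild type. It rose by 1.89 ± 0.21 (log2, SE; adjusted p = 0.0161 in limma), and was not called without OXmiR400 replicate 2, wild type replicate 1 or wild type replicate 3 (adjusted p up to 0.0914). AT2G30760, an uncharacterized gene, overlaps IMA3 by 639 bases on the opposite strand. Both neighbours were named after their values were seen. Its rise, 1.05 ± 0.16 (SE; adjusted p = 0.0356 in limma), cannot be told apart from reads of IMA3, since the handling of strand is not given in the sources used here.

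Other iron-deficiency genes lay higher in both lines without passing. Of 22 tested members of the list, 2 (IMA2 and IMA3) rose, none fell and 20 were not called, with a median log2 difference of 0.71, against -0.02 over all genes. The median was 0.66 in OXmiR400 and 0.73 in OXrPPR1. In 10 of the 22 all transgenic libraries exceeded all wild type libraries, a state found in 3.31% of all genes, and 14 were higher and 1 lower at unadjusted p under 0.05. The members can be ordered by role. Among the clade Ib bHLH genes, whose products turn on iron uptake, BHLH100 had a log2 difference of 1.81 ± 0.55, bHLH38 1.64 ± 0.43, BHLH101 1.303 ± 0.57 and bHLH39 0.89 ± 0.30 (SE). Among genes for iron movement, the phloem transporter gene OPT3 was at 51.3, 50.3 and 58.1 FPKM in OXmiR400 and 32.7, 63.6 and 51.8 FPKM in OXrPPR1, against 19.9, 28.1 and 25.3 FPKM in wild type. Its difference was 1.03 ± 0.19 (SE; adjusted p = 0.0580 in limma). NAS4, a nicotianamine synthase gene, differed by 1.202 ± 0.24, and FRO3, a ferric reductase gene, by 0.65 ± 0.14 (SE; adjusted p = 0.0767 and 0.0783 in limma). PYE and BTS, whose products limit the response, lay in the same direction, at 0.53 ± 0.14 and 0.78 ± 0.22 (SE). IRT1, the main root iron uptake transporter gene, was at 1.26, 2.13 and 3.57 FPKM in OXmiR400 and 2.67, 3.38 and 5.08 FPKM in OXrPPR1, against 3.13, 0.885 and 1.77 FPKM in wild type, so that its groups overlapped. FRU, for a bHLH factor needed for uptake, had a log2 difference of -0.57 ± 0.22 (SE; adjusted p = 0.269 in limma). The root ferric reductase gene FRO2 was below the expression filter, at 0.185 to 0.522 FPKM in all 9 libraries.

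NEET and ABCI8 fell, and no ferritin gene was called. NEET (AT5G51720), for a protein that carries an iron-sulfur cluster, was at 9.54, 5.97 and 5.62 FPKM in OXmiR400 and 9.82, 10.14 and 6.04 FPKM in OXrPPR1, against 32.6, 17.84 and 24.4 FPKM in wild type. The highest transgenic library was below the lowest wild type library. NEET fell by 1.55 (log2, SE 0.23; adjusted p = 0.0356 in limma), with -1.68 in OXmiR400 and -1.42 in OXrPPR1, and the call was lost without any wild type library, OXmiR400 replicate 2 or 3, or OXrPPR1 replicate 3 (limma, adjusted p up to 0.134). ABCI8 (AT4G04770), a subunit of the plastid machinery that assembles iron-sulfur clusters, was at 42.5, 35.4 and 30.7 FPKM in OXmiR400 and 43.1, 33.4 and 36.3 FPKM in OXrPPR1, against 77.9, 60.0 and 58.0 FPKM in wild type. It fell by 0.81 (SE 0.13; adjusted p = 0.0450 in limma), with -0.83 and -0.78 in the 2 lines, was named after its values were seen, and lost its call without any library but OXmiR400 replicate 1 or OXrPPR1 replicate 1 (limma, adjusted p up to 0.148). Of the 4 ferritin genes, which store iron, none was called and all had a negative difference, with a median of -0.56. FER4 was at 19.8, 12.1 and 9.95 FPKM in OXmiR400 and 17.2, 11.2 and 14.4 FPKM in OXrPPR1, against 33.1, 22.6 and 23.3 FPKM in wild type. Its difference was -0.87 ± 0.21 and that of FER3 -0.51 ± 0.14 (SE; adjusted p = 0.111 and 0.145 in limma). FER1 overlapped between groups and differed by -0.98 in OXmiR400 and -0.24 in OXrPPR1.

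FRO5 (AT5G23990), a ferric reductase family member known from copper deficiency, fell in the same comparison. It was at 3.09, 3.84 and 2.77 FPKM in OXmiR400 and 3.88, 2.43 and 6.70 FPKM in OXrPPR1, against 12.2, 10.9 and 13.8 FPKM in wild type. All transgenic libraries were below all wild type libraries, and OXrPPR1 replicate 3 stood above the other 5. FRO5 fell by 1.52 (SE 0.22; adjusted p = 0.0333 in limma), with -1.65 in OXmiR400 and -1.39 in OXrPPR1, and was called in 4 of the 9 fits with a library left out (adjusted p up to 0.134). It was the one called member of the 12 tested copper homeostasis genes, whose median was -0.21 (-0.32 without wild type replicate 2 and -0.07 without wild type replicate 3). FSD1, the iron superoxide dismutase gene, had a difference of -0.63 ± 0.20 (SE; adjusted p = 0.201 in limma), COPT2, a copper transporter gene, -0.39 ± 0.21, and the copper superoxide dismutase genes CSD1 and CSD2 0.04 ± 0.15 and 0.08 ± 0.23 (SE).

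**Figure D3:**
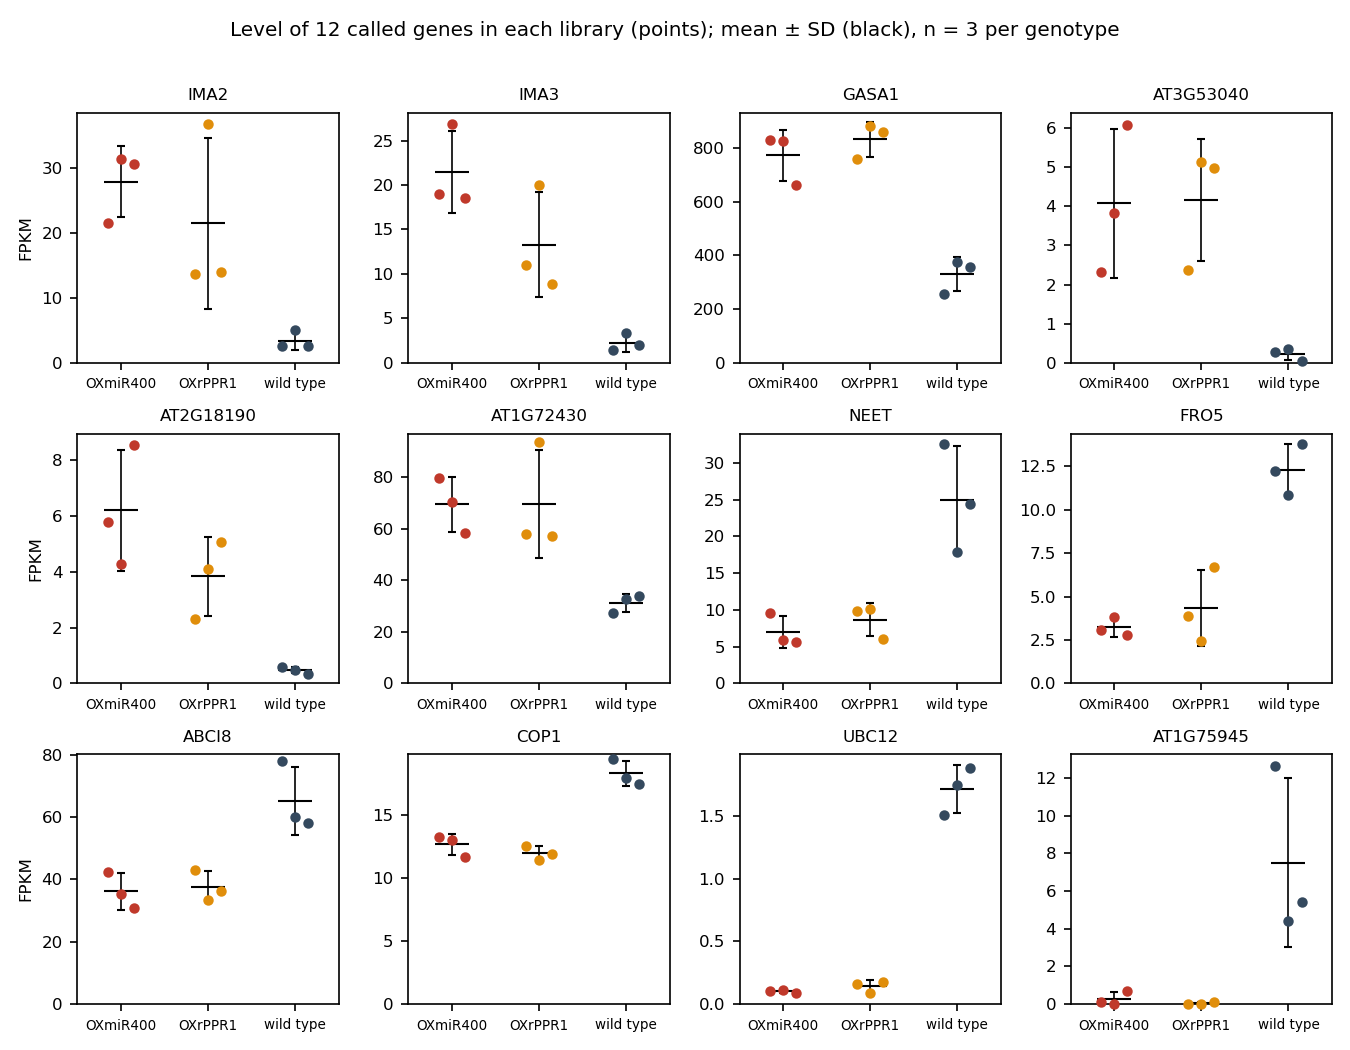
Level in FPKM (y axis, linear, from 0) of 12 called genes in each library, with points for single libraries and black bars for the mean and SD of each genotype (n = 3). In every panel both lines lie on the same side of wild type, as for IMA2 (lines 13.7 to 36.7, wild type 2.54 to 5.09) and NEET (lines 5.62 to 10.14, wild type 17.84 to 32.6).

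GASA1 and a gene of the SAUR family were the most highly expressed of the large rises. GASA1 (AT1G75750, chr1:28441501-28442435), a gibberellin-regulated gene for a small cysteine-rich protein, was at 828, 825 and 663 FPKM in OXmiR400 and 758, 880 and 860 FPKM in OXrPPR1, against 257, 374 and 356 FPKM in wild type. Its lowest transgenic library was above its highest wild type library by a wide margin. GASA1 rose by 1.295 ± 0.14 (log2, SE; adjusted p = 0.0131 in limma), with 1.24 in OXmiR400 and 1.35 in OXrPPR1, and lost its call only without OXmiR400 replicate 2 (0.0505). AT1G72430, of the SAUR family of auxin-responsive genes, was at 79.9, 70.3 and 58.6 FPKM in OXmiR400 and 58.0, 93.7 and 57.2 FPKM in OXrPPR1, against 27.3, 32.9 and 33.8 FPKM in wild type. It rose by 1.11 ± 0.16 (SE; adjusted p = 0.0333 in limma) and by nearly the same amount in each line, 1.12 in OXmiR400 and 1.09 in OXrPPR1. IDL3, for a peptide related to the abscission signal IDA, rose by 0.81 ± 0.11 (SE; adjusted p = 0.0294 in limma). Both AT1G72430 and IDL3 were called in 4 of the 9 fits with a library left out (adjusted p up to 0.134).

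Several rises were in genes close to 0 FPKM in wild type. AT3G53040, a late embryogenesis abundant protein gene, was at 2.31, 3.84 and 6.08 FPKM in OXmiR400 and 2.37, 5.13 and 4.98 FPKM in OXrPPR1, against 0.279, 0.360 and 0.0583 FPKM in wild type. AT2G18190, a P-loop nucleoside triphosphatase gene, was at 5.77, 4.26 and 8.54 FPKM in OXmiR400 and 2.305, 4.11 and 5.08 FPKM in OXrPPR1, against 0.592, 0.493 and 0.351 FPKM in wild type. In both, each transgenic library was higher than each wild type library. They rose by 2.002 ± 0.26 and 1.95 ± 0.27 (log2, SE; adjusted p = 0.0278 and 0.0294 in limma), and each lost its call without OXmiR400 replicate 2 or any wild type library (up to 0.115). AT5G37490, the ARM repeat gene, was at 11.2, 11.6 and 13.7 FPKM in OXmiR400 and 3.97, 9.33 and 7.27 FPKM in OXrPPR1, against 2.23, 0.956 and 0.959 FPKM in wild type. Its libraries of the 2 lines did not overlap each other. It rose by 2.1 ± 0.32 (SE; adjusted p = 0.0435 in limma), with 2.501 in OXmiR400 and 1.70 in OXrPPR1, a line difference of 0.80 (95% interval 0.18 to 1.43) that did not pass adjustment (0.556). It was called in 2 of the 9 fits, those without OXmiR400 replicate 1 or OXrPPR1 replicate 1 (limma, adjusted p up to 0.144 in the others). Smaller absolute rises at low level were those of eIF6B, a translation initiation factor gene (1.19 ± 0.18), AT1G52315, of a Vps4 regulator family (1.19 ± 0.18) and the mannose-binding lectin gene AT5G35940 (1.15 ± 0.14), all SE, with adjusted p = 0.0278 to 0.0356 in limma. AT1G52315 overlaps AT1G52310 by 109 bases on the same strand, and their reads may be shared.

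The smaller rises were in better expressed genes. EMB1303 (AT1G56200), a nuclear gene needed for chloroplast development, was at 269, 256 and 256 FPKM in OXmiR400 and 240, 215 and 262 FPKM in OXrPPR1, against 163, 162 and 152 FPKM in wild type. The lines were above wild type in every library. It rose by 0.65 ± 0.09 (SE; adjusted p = 0.0306 in limma), with 0.71 in OXmiR400 and 0.58 in OXrPPR1. AT1G15180, a MATE family efflux carrier gene, rose by 0.67 ± 0.09, and AT3G07273, uncharacterized, by 0.49 ± 0.06 (SE; adjusted p = 0.0294 in limma for each). All 3 were called in 4 of the 9 fits with a library left out (adjusted p up to 0.116).

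COP1 and CIP8, whose products bind each other, moved in opposite directions. COP1 (AT2G32950, chr2:13977881-13983609), a ubiquitin ligase that represses light responses in the dark, was at 13.2, 13.0 and 11.7 FPKM in OXmiR400 and 12.5, 11.5 and 11.9 FPKM in OXrPPR1, against 19.4, 18.0 and 17.5 FPKM in wild type. CIP8, a RING finger protein gene, was at 60.0, 66.1 and 64.4 FPKM in OXmiR400 and 66.1, 67.1 and 72.1 FPKM in OXrPPR1, against 42.8, 41.8 and 50.6 FPKM in wild type. Neither gene had overlapping groups. COP1 fell by 0.54 (SE 0.08; adjusted p = 0.0333 in limma), with -0.50 in OXmiR400 and -0.57 in OXrPPR1. CIP8 rose by 0.54 ± 0.09 (SE; adjusted p = 0.0450 in limma), with 0.49 and 0.60 in the 2 lines. COP1 was called without OXmiR400 replicate 1 or OXrPPR1 replicate 1 or 3, and CIP8 without OXmiR400 replicate 1, and neither was called without any other library (adjusted p up to 0.134 and 0.155 in limma), and CIP8 was named after its values were seen.

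AT1G75945 and UBC12 were close to 0 FPKM in both lines. AT1G75945, an uncharacterized gene at chr1:28515245-28515916, was listed at 0.127, 0 and 0.663 FPKM in OXmiR400 and 0, 0 and 0.113 FPKM in OXrPPR1, against 12.6, 4.43 and 5.41 FPKM in wild type. UBC12 (AT3G08700, chr3:2643144-2644775), a ubiquitin-conjugating enzyme gene, was at 0.101, 0.110 and 0.0874 FPKM in OXmiR400 and 0.163, 0.0843 and 0.178 FPKM in OXrPPR1, against 1.51, 1.75 and 1.89 FPKM in wild type. No transgenic library came near a wild type library in either gene. AT1G75945 fell by 2.79 (SE 0.28) and UBC12 by 1.28 (SE 0.13), each at adjusted p = 0.0131 in limma. The lines' own differences were -2.66 in OXmiR400 and -2.91 in OXrPPR1 for AT1G75945, and -1.304 and -1.25 for UBC12. AT1G75945 lost its call only without OXmiR400 replicate 2 (0.0505), and UBC12 also without wild type replicate 2 or 3 (up to 0.0616). Both were picked for naming with their values known, the first having no product name and the second lying under 2 FPKM in wild type.

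OCT1, AT4G00910 and NYC1 were among the remaining falls. OCT1 (AT1G73220), an organic cation and carnitine transporter gene, was at 1.297, 1.22 and 1.24 FPKM in OXmiR400 and 2.96, 1.48 and 2.32 FPKM in OXrPPR1, against 5.67, 7.44 and 6.00 FPKM in wild type. It fell by 1.45 (SE 0.20; adjusted p = 0.0294 in limma), with -1.70 in OXmiR400 and -1.198 in OXrPPR1, and was called in 4 of the 9 fits with a library left out. OCT1 overlaps AT1G73230, on the opposite strand and averaging 149 FPKM, by 8 bases. AT4G00910, of the aluminium-activated malate transporter family, was at 2.499, 2.15 and 2.301 FPKM in OXmiR400 and 3.14, 2.097 and 2.68 FPKM in OXrPPR1, against 10.0, 6.23 and 4.72 FPKM in wild type. It fell by 1.15 (SE 0.19; adjusted p = 0.0466 in limma), but of those 9 fits it was called in the one without OXrPPR1 replicate 1 (adjusted p up to 0.134 in the others). NYC1, a chlorophyll b reductase used in chlorophyll breakdown, fell by 0.81 (SE 0.13; adjusted p = 0.0450 in limma), to 35.0 to 54.8 FPKM in the lines, against 68.4 to 80.7 FPKM in wild type. NYC1 was named after its values were seen and was called in the fits without OXmiR400 replicate 1 or OXrPPR1 replicate 1 (up to 0.148 in the others, in limma). The wild type libraries were the higher ones in each of these genes.

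Plastid-encoded transcripts took a smaller part of every transgenic library. They took 0.274%, 0.111% and 0.193% of all units in OXmiR400 and 0.122%, 0.0959% and 0.135% in OXrPPR1, against 0.300%, 0.461% and 0.371% in wild type. No wild type library was as low as any transgenic one, and OXmiR400 replicate 1 was near the lowest wild type library. The mean share was 0.155% ± 0.0673 in the lines and 0.377% ± 0.0807 in wild type (SD, n = 6 and 3), with an exact two-sided permutation p of 0.0238, the smallest that 6 against 3 libraries can give. Without any 1 wild type library the exact permutation p was 0.0714, the smallest that 6 against 2 libraries can give. In bulk samples, fewer cells or plastids and less RNA in each cannot be told apart. Per the labels an mRNA kit made the libraries, so the shares are of transcripts as captured. How evenly organelle transcripts were captured was not tested.

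By gene, 3 of the 89 tested plastid genes fell, none rose and 86 were not called, with a median log2 difference of -1.11, or -0.88 in OXmiR400 and -1.40 in OXrPPR1. In 54 of the 89 the transgenic libraries were all below the wild type libraries, a state found in 4.33% of all genes, and plastid genes share a compartment and overlapping transcripts, so they are not independent. The 3 called genes lie in 1 stretch of the plastid genome, between 60741 and 63920. petA, for cytochrome f, was at 12.2, 6.37 and 7.43 FPKM in OXmiR400 and 5.87, 4.84 and 7.45 FPKM in OXrPPR1, against 19.5, 25.4 and 20.6 FPKM in wild type. psbL, for a small photosystem II subunit, was at 43.8, 22.7 and 27.2 FPKM in OXmiR400 and 20.5, 15.1 and 27.2 FPKM in OXrPPR1, against 72.0, 88.0 and 84.0 FPKM in wild type. In both genes OXmiR400 replicate 1 was the highest transgenic library and still below wild type. petA fell by 1.49 (SE 0.22; adjusted p = 0.0333 in limma), psbL by 1.67 (SE 0.26; adjusted p = 0.0450) and cemA, for a chloroplast envelope protein, by 1.07 (SE 0.17; adjusted p = 0.0450). They were called in 4, 2 and 1 of the 9 fits with a library left out, with adjusted p up to 0.143.

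Sorted by role, the classes for electron transport and ATP synthesis had medians further from 0 than those for gene expression. This order was not tested. Single genes overlapped, at -1.62 to -0.10 in photosystem I and -1.26 to -0.12 in ribosomal proteins. The scale understates the change of low genes, and the classes were not matched for level. The median log2 difference was -1.54 for the 4 genes of the cytochrome b6f complex, -1.46 for 15 of photosystem II, -1.38 for 6 of photosystem I and its assembly, -1.27 for 9 of the NDH complex and -1.23 for 6 of the ATP synthase. It was -0.95 for 25 tested ribosomal protein genes, -0.76 for 4 RNA polymerase genes and -1.06 for 20 others. rbcL, for the large subunit of Rubisco, was at 168, 63.7 and 116 FPKM in OXmiR400 and 79.0, 81.7 and 89.8 FPKM in OXrPPR1, against 200, 328 and 285 FPKM in wild type, a difference of -1.48 ± 0.28 that did not pass (SE; adjusted p = 0.0736 in limma). rpoB, for an RNA polymerase subunit, overlapped between the groups at -0.36 ± 0.16, as did psaJ, for a photosystem I subunit, at -0.10 (adjusted p = 0.319 for rpoB in limma).

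**Figure D4:**
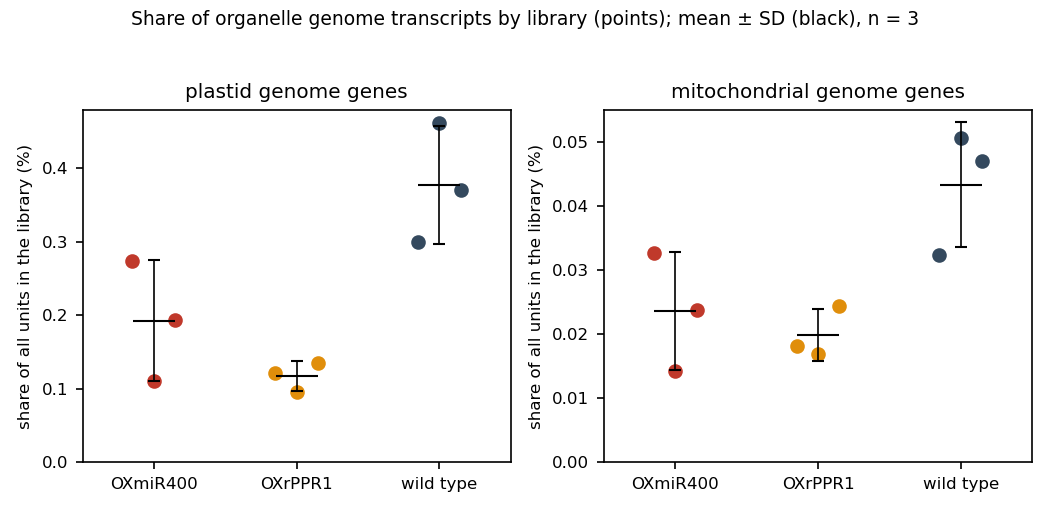
Share of all units in each library (y axis, percent, from 0) that came from plastid genome genes (left) and mitochondrial genome genes (right), with points for libraries and black bars for the mean and SD (n = 3 per genotype). The plastid share is 0.0959% to 0.274% in the lines and 0.300% to 0.461% in wild type, and the mitochondrial share overlaps by 1 library of each group.

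The nuclear photosystem genes as a list did not lie lower. No list of nuclear genes for the other complexes was examined. None of the 38 nuclear photosystem genes was called, 29 had a positive difference, and the median was 0.15, with 0.21 in OXmiR400 and 0.11 in OXrPPR1. PSAH-1, for a photosystem I subunit, was at 391.9, 456 and 436 FPKM in OXmiR400 and 434, 405 and 322 FPKM in OXrPPR1, against 309, 298 and 318 FPKM in wild type. Its difference was 0.39 ± 0.12 and that of PSAE-2 0.34 ± 0.12 (SE; adjusted p = 0.170 and 0.220 in limma).

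Mitochondrial genome transcripts also took a smaller share in the lines. The share was 0.0328%, 0.0143% and 0.0238% in OXmiR400 and 0.0182%, 0.0169% and 0.0245% in OXrPPR1, against 0.0323%, 0.0507% and 0.0470% in wild type, so OXmiR400 replicate 1 overlapped wild type replicate 1. The mean was 0.0217% ± 0.00672 in the lines and 0.0433% ± 0.00971 in wild type (SD, n = 6 and 3; exact two-sided permutation p = 0.0476). The exact permutation p was 0.0357 without OXmiR400 replicate 1, and 0.0714 to 0.143 without any 1 of the other 8 libraries. Of 56 tested mitochondrial genes 1 fell, none rose and 55 were not called, with a median of -0.58 (-0.14 with no expression filter and -0.90 with a pseudocount of 0.1). The gene was ATMG00220, listed by its identifier alone, at 2.17, 0.965 and 1.64 FPKM in OXmiR400 and 1.89, 1.89 and 1.77 FPKM in OXrPPR1, against 4.19, 6.25 and 6.53 FPKM in wild type. It fell by 1.29 (SE 0.18; adjusted p = 0.0294 in limma), with -1.37 and -1.21 in the 2 lines. AT2G07727, annotated as cytochrome b on chromosome 2 at 3449534 to 3452776, fell by 1.32 (SE 0.16; adjusted p = 0.0211 in limma). It holds all 1182 bases of the mitochondrial cytochrome b gene in TAIR10.1, so reads of a chromosomal and a mitochondrial copy cannot be told apart. ATMG00220 spans 60235 to 61416 in the deposited table, which is also 1182 bases, so the falls of ATMG00220 and AT2G07727 may be a single signal counted at both loci. ATMG00220 was called in 4 and AT2G07727 in 6 of the 9 fits with a library left out (adjusted p up to 0.0998 and 0.0760).

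No gene was called in the lists of nuclear genes that act on organelle RNA or report on mitochondria. Of 21 tested Rf-like PPR genes, the class of known miR400 targets, none was called and the median was -0.02, and of 12 organelle RNA editing cofactor genes none was called (median -0.12, and -0.06 without wild type replicate 1). The smallest p among the 21 PPR genes was that of AT1G63080, at 0.22 ± 0.14 (SE; adjusted p = 0.490 in limma). Of 20 mitochondrial retrograde response genes, induced when mitochondria fail, none was called, 13 had a negative difference and the median was -0.18. AOX1A, for the alternative oxidase, was at 48.1, 44.3 and 39.7 FPKM in OXmiR400 and 32.2, 60.5 and 31.9 FPKM in OXrPPR1, against 98.8, 61.7 and 43.9 FPKM in wild type, with overlap. ABCB4, an auxin transporter gene, differed by -0.73 ± 0.16 without overlap (SE; adjusted p = 0.0822 in limma).

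**Figure D5:**
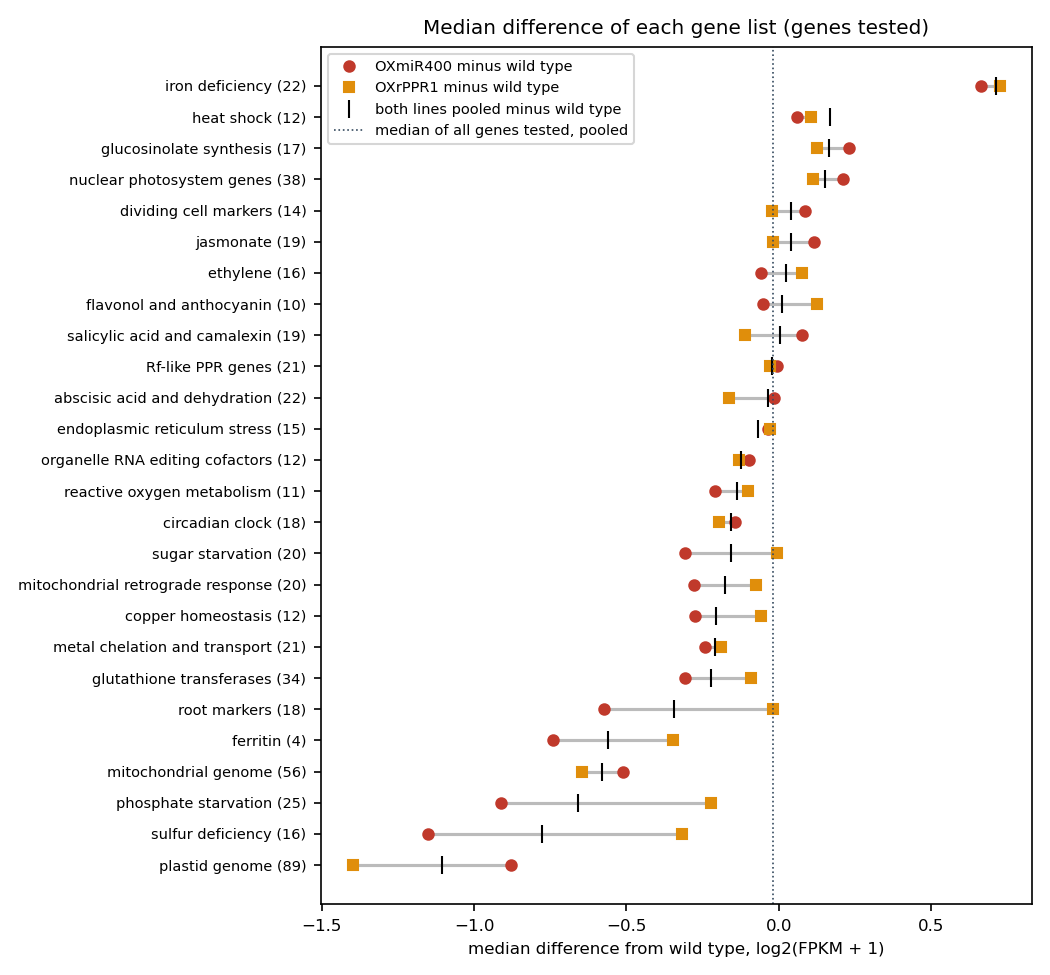
Median log2(FPKM + 1) difference from wild type (x axis) of the tested members of 26 gene lists (rows, number tested in brackets), for OXmiR400 (circles), OXrPPR1 (squares) and both lines pooled (black ticks), with the median of all genes as a dotted line. The iron deficiency list is highest at 0.71 and the plastid genome lowest at -1.11, and the sulfur deficiency and phosphate starvation lists lie further from 0 in OXmiR400 (-1.15 and -0.91) than in OXrPPR1 (-0.32 and -0.22).

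The nutrient lists with a low pooled median had their lower median in OXmiR400, a difference between the lines that was not tested for the lists. None of 16 sulfur deficiency genes was called, 15 had a negative difference and the median was -0.78 (-0.50 without wild type replicate 3), with -1.15 in OXmiR400 and -0.32 in OXrPPR1. SULTR1;2, the main root sulfate uptake transporter gene, was at 25.2, 27.7 and 27.3 FPKM in OXmiR400 and 52.4, 57.8 and 42.7 FPKM in OXrPPR1, against 62.5, 54.9 and 78.2 FPKM in wild type. It overlapped between OXrPPR1 and wild type, and its pooled difference was -0.79 ± 0.28 (SE; adjusted p = 0.230 in limma). LSU1, the one member with a positive difference and named after its values were seen, was at 12.8, 21.0 and 20.4 FPKM in OXmiR400 and 1.11, 108 and 1.22 FPKM in OXrPPR1, against 2.34, 1.69 and 1.44 FPKM in wild type. Its level in OXrPPR1 rests on replicate 2. None of 25 phosphate starvation genes was called, all 25 had a negative difference, and the median was -0.66, with -0.91 in OXmiR400 and -0.22 in OXrPPR1. The phosphate sensor gene SPX2 was at 16.7, 15.9 and 16.7 FPKM in OXmiR400 and 18.3, 15.7 and 23.0 FPKM in OXrPPR1, against 34.3, 28.7 and 23.2 FPKM in wild type. The groups did not overlap by a narrow margin, at -0.66 ± 0.14 (SE; adjusted p = 0.0819 in limma). PHT1;1, a phosphate uptake transporter gene, differed by -0.94 ± 0.22 (SE; adjusted p = 0.106 in limma). The root markers had the same pattern of medians. Of 18 tested none was called, and the median was -0.34, with -0.57 in OXmiR400 and -0.02 in OXrPPR1, but -0.09 without wild type replicate 3. Their summed level was 1548 to 2119 FPKM in the lines and 2159 to 3137 FPKM in wild type, but PYK10, a beta-glucosidase gene, made up nearly all of it, at 1421 to 1923 FPKM in the lines and 1953 to 2996 FPKM in wild type. The mean log2 level over the 19 markers overlapped, at 2.69 to 2.81 in OXmiR400 and 2.89 to 3.43 in OXrPPR1, against 3.07 to 3.399 in wild type. The part of root tissue in these lists was not tested. Among 20 sugar starvation genes none was called and the median was -0.16, and -0.31 to 0.14 with 1 library left out, the ends being without wild type replicates 1 and 2.

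Genes of cadmium detoxification were not called, apart from GSTU22. Of 34 glutathione transferase genes, 1 fell, none rose and 33 were not called, with a median of -0.22 (-0.12 without wild type replicate 1). GSTU22 (AT1G78340) was at 7.19, 7.58 and 8.13 FPKM in OXmiR400 and 10.6, 7.28 and 8.70 FPKM in OXrPPR1, against 15.8, 13.4 and 13.8 FPKM in wild type. It fell by 0.74 (SE 0.12; adjusted p = 0.0450 in limma), with -0.83 and -0.65 in the 2 lines, and was called without OXmiR400 replicate 1 or OXrPPR1 replicate 1 and in no other of the 9 fits (adjusted p up to 0.174). Similar transferase genes may share reads. GSTU8 and GSTU1 differed by -0.54 ± 0.11 and -0.74 ± 0.17 without overlap and were not called (SE; adjusted p = 0.0713 and 0.108 in limma). Of 21 tested metal chelation and transport genes, none was called and the median was -0.21 (-0.135 without wild type replicate 1). ABCC1, a vacuolar transporter of phytochelatin complexes, was at 25.5, 22.3 and 23.9 FPKM in OXmiR400 and 22.4, 21.8 and 27.5 FPKM in OXrPPR1, against 32.6, 29.96 and 29.9 FPKM in wild type, without overlap. Its difference was -0.36 ± 0.09, and that of the phytochelatin synthase gene CAD1 -0.21 ± 0.14 (SE; adjusted p = 0.122 and 0.507 in limma). Of 11 reactive oxygen genes none was called (median -0.14, and -0.08 without wild type replicate 3).

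Clock genes showed small differences that did not pass. None of 18 was called and the median was -0.16 (-0.06 without wild type replicate 2 and -0.24 without wild type replicate 3), with 7 lower and 3 higher at unadjusted p under 0.05. GI (GIGANTEA), an evening gene, was at 35.8, 28.3 and 27.0 FPKM in OXmiR400 and 30.9, 27.0 and 27.3 FPKM in OXrPPR1, against 43.8, 44.0 and 42.1 FPKM in wild type, without overlap. Its difference was -0.55 ± 0.10, and that of the evening gene TOC1 -0.46 ± 0.10 (SE; adjusted p = 0.0580 and 0.0831 in limma). The morning genes LHY and CCA1 had differences of 0.69 ± 0.25 and 0.48 ± 0.19 (SE), with overlap, and the labels give no time of harvest.

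The remaining lists gave no call in limma and medians near that of all genes. They were heat shock (median 0.17 over 12 genes), glucosinolate synthesis (0.17 over 17), jasmonate (0.04 over 19), salicylic acid and camalexin (0.01 over 19), ethylene (0.02 over 16), abscisic acid and dehydration (-0.04 over 22), endoplasmic reticulum stress (-0.07 over 15), and flavonol and anthocyanin (0.01 over 10). Of these 8 lists, the glucosinolate list alone kept the sign of its median under all alternatives run, at 0.01 without wild type replicate 1 and 0.29 without wild type replicate 3. The heat shock median was 0.33 without wild type replicate 1. LTI30, a dehydrin gene of the dehydration list, was at 27.1, 20.03 and 20.9 FPKM in OXmiR400 and 61.7, 30.2 and 16.4 FPKM in OXrPPR1, against 42.5, 132 and 72.8 FPKM in wild type, and overlapped. Its difference was -1.45 ± 0.44 and that of NAC103, an endoplasmic reticulum stress factor gene, 0.60 ± 0.18 (SE; adjusted p = 0.194 and 0.180 in limma). Dividing cell markers had a median of 0.04 over 14 genes. CYCB1;1, a mitotic cyclin gene, was at 7.03, 7.63 and 10.95 FPKM in OXmiR400 and 4.85, 7.82 and 8.37 FPKM in OXrPPR1, against 4.27, 2.98 and 3.44 FPKM in wild type, at 0.92 ± 0.19 (SE; adjusted p = 0.0783 in limma). Of the seed storage markers 1 of 11 in the table passed the filter, and their sum was 0.312 to 10.9 FPKM in the lines and 1.095 to 6.77 FPKM in wild type.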

How the data were processed

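The deposited FPKM values come from 1 table of 9 libraries, of which the other 2 deposited tables are copies. The unit is not named in the sources used here and was inferred from the values. The submitters' processing notes name the builds GRCm38 and mm10, which are mouse, while 26504 of 26973 genes had the start and end of a TAIR10.1 locus. No aligner, counter or strand setting is given in the sources used here. Low values lay on 4 steps per unit, not whole reads, so no count model was used. Per the labels, TRIzol was used for extraction and a SMARTer mRNA kit for the libraries.

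Genes whose mean reached 1 FPKM in any genotype were tested on log2(FPKM + 1) with limma 3.58.1 (trended and robust, R 4.3.3), with Benjamini-Hochberg adjustment over all genes tested, as 6 against 3 libraries. A second fit with 1 mean per genotype gave each line's difference and the line contrast. The script was tested on simulated data. Replicate numbers were not used to pair libraries in these fits.

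The members and gene lists were chosen with earlier results of these data known. Named genes were MIR400, its host, PPR1 and PPR2, the 12 largest called rises and falls of at least 1 (log2) with no overlap, a mean of at least 2 FPKM and a name, up to 4 called members of each list or 2 of smallest p, and the 6 smallest adjusted p at lower folds. Any other gene was named after its values were seen. Alternatives were another normalization, filter or pseudocount, no variance trend, the replicate block, organelle genes left out, and each library left out.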

Additional observations from a re-analysis of the deposited data

Results flagged for a closer look

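MIR400 differed between the lines by 9.29 on the log2 scale (OXmiR400 minus OXrPPR1; adjusted p = 7.24e-09 in limma) and PPR1 by -3.08 (adjusted p = 1.69e-05), so for each the effect against wild type differed between the lines.

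Among the 72 named genes, 7 had 1 transgenic library far from the other 5, by a gap of over 0.625 of the range. For 6 normal values of 1 population that occurs in about 1 gene in 20. The values here are FPKM of both lines and the genes were partly chosen by p, so that rate need not hold. FRO5 was at 6.70 FPKM and SPX2 at 23.0 FPKM in OXrPPR1 replicate 3. petA was at 12.2 FPKM and HSFA2, a heat stress factor gene, at 5.47 FPKM in OXmiR400 replicate 1. BGL2, a glucanase gene of the salicylic acid list, was at 2.97 FPKM and VSP2, a jasmonate gene, at 20.7 FPKM in OXrPPR1 replicate 2, and LTI30 at 61.7 FPKM in OXrPPR1 replicate 1. FRO5 and petA are called genes, and in both these outlying libraries lay nearer to wild type than the other 5.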

How the results depend on the processing

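The count of called genes, 41 with 23 higher and 18 lower, was 23 with no expression filter (13 higher, 10 lower) and 98 with 1 mean per genotype (39 higher, 59 lower), a fit that does not count the difference between lines as spread. All 41 were among the 98. Without the variance trend 28 were called (18 higher, 10 lower), 26 of them among the 41. Without both OXrPPR1 replicate 3 and wild type replicate 2, chosen after seeing the data, it was 76 (48 lower), and 34 instead of 13 between the lines. Leaving out 1 library gave 0 to 99 calls, with 0 to 32 higher and 0 to 73 lower, and 7 to 18 between the lines. The differences in organelle share (percentage points) then ranged from -0.261 to -0.180 for plastids and from -0.0271 to -0.0179 for mitochondria. Whether replicate numbers pair the libraries was not settled. Same-numbered deviations from the genotype means correlated at -0.246 to 0.133 (median 0.052), and others at -0.378 to 0.31 (median -0.0305). With the replicate block, 40 genes were called, 24 of them among the 41, and 7 between the lines, and with the block and 1 mean per genotype 62 (30 lower). Under quantile normalization 47 were called, under median centring 53, at a filter of 5 FPKM 29, with a pseudocount of 0.1 51 and without organelle genes 37. The called genes kept their direction under every alternative run in which they were tested. Depth is known only from value steps, and with 3 wild type libraries no call of the 39 genes other than GASA1 and AT1G75945 held without wild type replicate 3.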
